A study of Mus musculus with 12 samples.

Results

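The comparison set 3 libraries labelled BF10 against 3 libraries labelled IL-10-Fc, 6 of the 12 RNA sequencing libraries of the series, and its members were chosen by these treatment labels alone. IL-10-Fc is interleukin-10 joined to an antibody Fc part. BF10 is a fusion in which human IL-10 was linked to the heavy chain of an antibody (clone AFS98) that blocks mouse CSF1R, so the contrast asks what the CSF1R-binding arm adds to the cytokine. Per the labels and the methods of the study, all mice were C57BL/6 and carried tumours of MTC-Q1 cells, a mouse oral cancer line, of which the Q1-2 subline was used. The methods name injection into the mouth or under the skin, depending on the experiment. Treatment was given by injection of the proteins for 6 doses per the treatment protocol, started at a tumour volume of 100 mm3, and the series design gives another number of doses. The remaining 6 libraries, 3 Ctrl-IgG (control antibody) and 3 aCSF1R (the CSF1R antibody alone), served to estimate the spread and the background. No label ties a library to a mouse, so p-values measure the spread between libraries, which may in part be technical.

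CSF1R is the receptor for CSF1 and IL-34, and macrophages and their precursors depend on it for growth and survival. IL-10 binds a receptor made of IL10RA and IL10RB and signals through JAK1, TYK2 and STAT3. In macrophages this signal restrains inflammatory cytokine genes, whereas in B cells IL-10 is a growth and differentiation factor and in activated CD8 T cells it can sustain cytotoxic function. Human IL-10 acts on the mouse receptor, so the mouse Il10 transcript reports the host gene and not the drug. In bulk tumour RNA, fewer cells of a type and less RNA per cell cannot be told apart.

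Some properties of the libraries were seen before any gene was compared. The sample titles carry a code whose first number is 4 or less for BF10 replicate 1 and for replicates 1 and 2 of IL-10-Fc, here called low-code libraries, and 5 or more for BF10 replicates 2 and 3 and for replicate 3 of IL-10-Fc, called high-code libraries. The meaning of the code was not given in the sources used here. The 3 low-code libraries had 6.05% to 8.26% of their FPKM (fragments per kilobase of transcript, scaled to the fragments of the library) in mitochondrial mRNA and an FPKM-weighted gene GC content of 48.59% to 49.51%. The 3 high-code libraries had 2.81% to 2.85% and 50.74% to 50.82%. Outside the comparison the code did not mark this profile. Ctrl-IgG replicate 1 and aCSF1R replicates 1 and 2, also with a first number of 4 or less, had 2.71%, 2.94% and 3.20% of mitochondrial mRNA. Their GC content was 50.53%, 50.56% and 50.79%. Ctrl-IgG replicate 2, with a low first number as well, had 6.42% and 48.95%. Between the low-code and the high-code libraries, limma called 7996 of 15813 genes, 50.57%, so this division was wider than that between treatments. Across genes, a BF10 and an IL-10-Fc library of the same code class correlated at r = 0.963 to 0.98 (4 pairs) and of different classes at r = 0.855 to 0.923 (5 pairs). For this reason the main results are given for all 6 libraries and within a class, and the class itself cannot be told apart from whatever else the code stands for.

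The markers of the libraries differed in part from their labels. All 6 had Krt8 and Krt18, keratins of simple epithelium, at 168.9 to 617.8 FPKM and Epcam at 29.85 to 44.4 FPKM. The squamous keratin Krt5 was at most 2.38 FPKM and the squamous regulator Trp63 at most 0.33 FPKM. H2-Ea, an MHC class II gene that C57BL/6 mice do not express, was at 552.8 to 1726.8 FPKM in all 6. The Ctrl-IgG and aCSF1R libraries had a median of 0.145 FPKM of H2-Ea and 0.145 FPKM of Krt8, so they were of another kind. In H2-Ea it was the 6 compared libraries that departed from the C57BL/6 label. Genes of the sex chromosomes differed too. The 1 gene of the X inactivation list was at 17.09 to 30.68 FPKM in the 6, and at most 0.04 FPKM in the other kind. Y-linked genes summed to 0.01 to 0.07 FPKM in the 6 without BF10 replicate 3 (5.08 FPKM), against 7.94 to 18.0 FPKM. BF10 and IL-10-Fc did not differ from each other in these markers by groups that were fully separate, other than Krt5, and the group names below stand for the labels.

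RNA of that other kind was present in part of the BF10 libraries. Over 21 genes that reached 20 FPKM in each of the 6 Ctrl-IgG and aCSF1R libraries but not 1 FPKM in any of the 3 IL-10-Fc libraries, chosen without the BF10 values, BF10 replicate 3 held a median of 16.35% of the Ctrl-IgG and aCSF1R level (quartiles 14.1% and 17.51%). BF10 replicate 1 held 3.48% and BF10 replicate 2 held 0.021%, against 0.030% to 0.159% in the IL-10-Fc libraries. Rhox5, a homeobox gene that was at a median of 685.9 FPKM in the other kind, was at 0.79, 1.31 and 1.41 FPKM in IL-10-Fc replicates 1 to 3 and at 20.62, 0.37 and 111.2 FPKM in BF10 replicates 1 to 3. A gene that is high in the Ctrl-IgG and aCSF1R libraries can therefore appear raised in BF10 replicates 1 and 3 through that RNA, and its level there is given beside such genes.

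**Figure D1:**
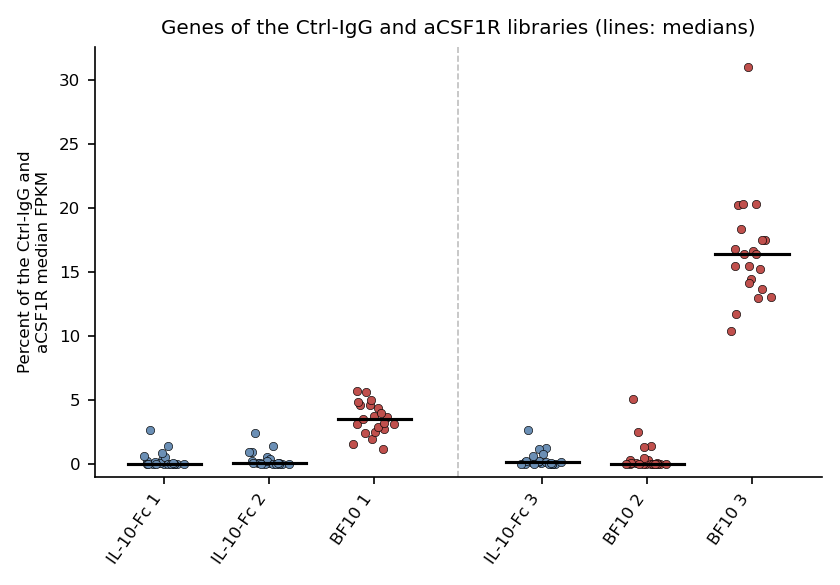
Level of the 21 genes in each library, as a percent of their median over the Ctrl-IgG and aCSF1R libraries (y axis), with 1 point per gene and a line at the median of each library; the dashed line separates low-code (left) from high-code libraries (right). BF10 replicate 3 has a median of 16.35% and BF10 replicate 1 of 3.48%, and the other 4 libraries lie near 0.

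Among the 15813 genes that reached 1 FPKM in 3 or more libraries, 2 genes passed the test between BF10 and IL-10-Fc, 0.0126% of those tested. A gene was called at a Benjamini-Hochberg adjusted p under 0.05 in limma and a change of at least 1.5-fold on the log2(FPKM + 1) scale. Of these, 1 rose (0.00632%) and 1 fell (0.00632%), and an unadjusted p under 0.05 was reached by 828 genes. The median log2 change over all tested genes was 0.34, and 0.04 after median-of-ratios scaling of the libraries, so a change is to be read against that median, and 4 genes (0.0253%) were called after that scaling, with Igkv3-1 and the small nuclear RNA gene Gm24497, named after their values were seen, besides the 2. Without such a test, 738 genes (4.67%) had all 3 BF10 libraries above all 3 IL-10-Fc libraries and 81 (0.512%) had them all below. After median-of-ratios scaling these counts became 364 (2.3%) and 246 (1.56%).

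The gene that rose was Ighg3 (chr12:113356224-113361232, minus strand, GRCm38), the constant region of the IgG3 heavy chain. It was at 0.12, 0.03 and 0.14 FPKM in IL-10-Fc replicates 1 to 3 and at 16.98, 8.51 and 11.11 FPKM in BF10 replicates 1 to 3. It passed the filter on low values through the BF10 libraries alone. The IL-10-Fc values were near the rounding of the table, all 3 BF10 values were above 8 FPKM, and the median over the Ctrl-IgG and aCSF1R libraries was 0.015 FPKM. Its log2 change was 3.54 ± 0.22 (SE, n = 3 libraries per group, limma adjusted p = 9.3e-05). Its log2 change was 4.07 in the low-code libraries and 3.23 in the high-code libraries. These changes divide the same 6 values and are no further support. Carried-over RNA would amount to 0.022% of its level in BF10 replicate 3. Its error in the main fit and in the fit by class was pooled with the Ctrl-IgG and aCSF1R libraries, where its median was near 0. In a fit of the 6 libraries alone its change was the same size as in the main fit and its limma adjusted p was 0.17.

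The gene that fell was Mir1893, a microRNA gene on chromosome 18. It was at 3.39, 1.82 and 4.25 FPKM in IL-10-Fc replicates 1 to 3 and was listed at 0 in all 3 BF10 libraries, a log2 change of -2.01 ± 0.21 (SE, n = 3 per group, limma adjusted p = 0.0088). Its mean normalized count over the 6 libraries, as deposited by the authors, was 0.725, against 163 for Ighg3, so the difference rests on very few fragments of a short gene.

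Among the 8 heavy chain constant genes, IgG3 stood out in BF10 replicate 1. The summed heavy chain level was 99.31, 7.61 and 81.72 FPKM in IL-10-Fc replicates 1 to 3 and 74.51, 727.7 and 1978.2 FPKM in BF10 replicates 1 to 3. The sum was thus higher in BF10 replicates 2 and 3 than in every IL-10-Fc library, and BF10 replicate 1 lay within the IL-10-Fc range. Ighg3 made up 22.79% of the heavy chain sum in BF10 replicate 1, 1.17% in BF10 replicate 2 and 0.56% in BF10 replicate 3, and at most 0.39% in the IL-10-Fc libraries. Ighg1 (IgG1) made up 24.12%, 63.61% and 79.81% in BF10 replicates 1 to 3, against 68.22%, 16.03% and 40.5% in IL-10-Fc replicates 1 to 3. Igha (IgA) made up 4.64%, 1.79% and 0.69% in BF10, against 5.39% to 23.60% in IL-10-Fc.

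Over the whole list of 12 immunoglobulin constant genes, 10 were tested and Ighg3 was the one that passed in all 6 libraries. Ighm, which encodes the heavy chain of IgM, was at 13.71, 5.47 and 28.38 FPKM in IL-10-Fc and 32.65, 135.6 and 155.4 FPKM in BF10. These groups did not overlap, but the gene did not pass (log2 change 2.67 ± 0.61 SE, limma adjusted p = 0.48). Igkc, the kappa light chain constant gene, was at 128.8, 5.67 and 82.13 FPKM in IL-10-Fc and 96.63, 919.5 and 2432.6 FPKM in BF10, and Ighg1 at 67.75, 1.22 and 33.1 against 17.97, 462.9 and 1578.9 FPKM. In both, BF10 replicates 2 and 3 were the highest libraries and BF10 replicate 1 was below IL-10-Fc replicate 1. Neither passed (limma adjusted p = 0.48 each). Jchain, which joins IgM and IgA into polymers and marks plasma cells, was at 48.28, 2.4 and 6.06 FPKM in IL-10-Fc and 17.14, 67.73 and 180.7 FPKM in BF10.

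**Figure D2:**
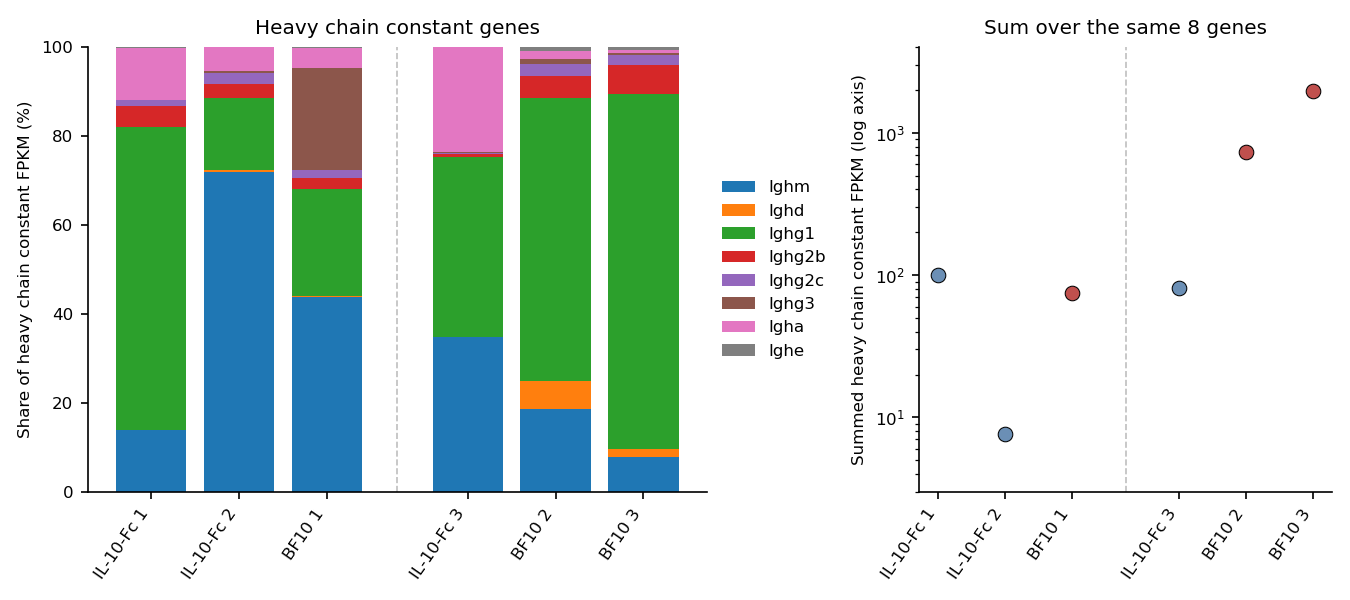
Left, share (%) of each heavy chain constant gene in the summed FPKM of the 8 genes in each library; right, that sum in FPKM on a log axis; blue points are IL-10-Fc, red points BF10, and the dashed line separates low-code from high-code libraries. Ighg3 takes 22.79% of the sum in BF10 replicate 1, and the sum reaches 727.7 and 1978.2 FPKM in BF10 replicates 2 and 3 against at most 99.31 FPKM in IL-10-Fc.

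The variable segments behaved like the constant genes. Reads of similar segments may be split between them, so they are given as families. Summed over 185 Ighv segments the level came to 62.57, 26.92 and 72.26 FPKM for IL-10-Fc and 68.15, 581.0 and 1666.2 FPKM in BF10, and 83 and 97 segments reached 1 FPKM in BF10 replicates 2 and 3 against 6 to 19 in the other 4 libraries. For 160 Igkv segments the sums were 93.78, 5.56 and 52.64 FPKM against 69.73, 687.4 and 1985.7 FPKM. No single segment made up most of the sums in BF10 replicates 2 and 3. The most abundant Ighv segment held 10.18% of the family in BF10 replicate 2 and 13.08% in BF10 replicate 3. For Igkv the shares were 7.05% and 20.61%.

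B cell genes were higher in BF10 replicates 2 and 3 than in the other 4 libraries, and most of them were near 0 there. Ms4a1, which encodes the surface protein CD20, was at 0.41, 0.09 and 0.08 FPKM in IL-10-Fc replicates 1 to 3 and at 0.19, 22.64 and 9.57 FPKM in BF10 replicates 1 to 3. Cd79a, a signalling chain of the B cell receptor, was at 0.32, 0.05 and 0.31 against 0.27, 50.99 and 29.6 FPKM. BF10 replicate 1 did not differ from the IL-10-Fc libraries in either gene by more than their own range. Summed over the 17 genes of the B cell list, the level came to 9.65, 4.24 and 13.83 FPKM for IL-10-Fc and 8.25, 355.9 and 210.5 FPKM in BF10.

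**Figure D3:**
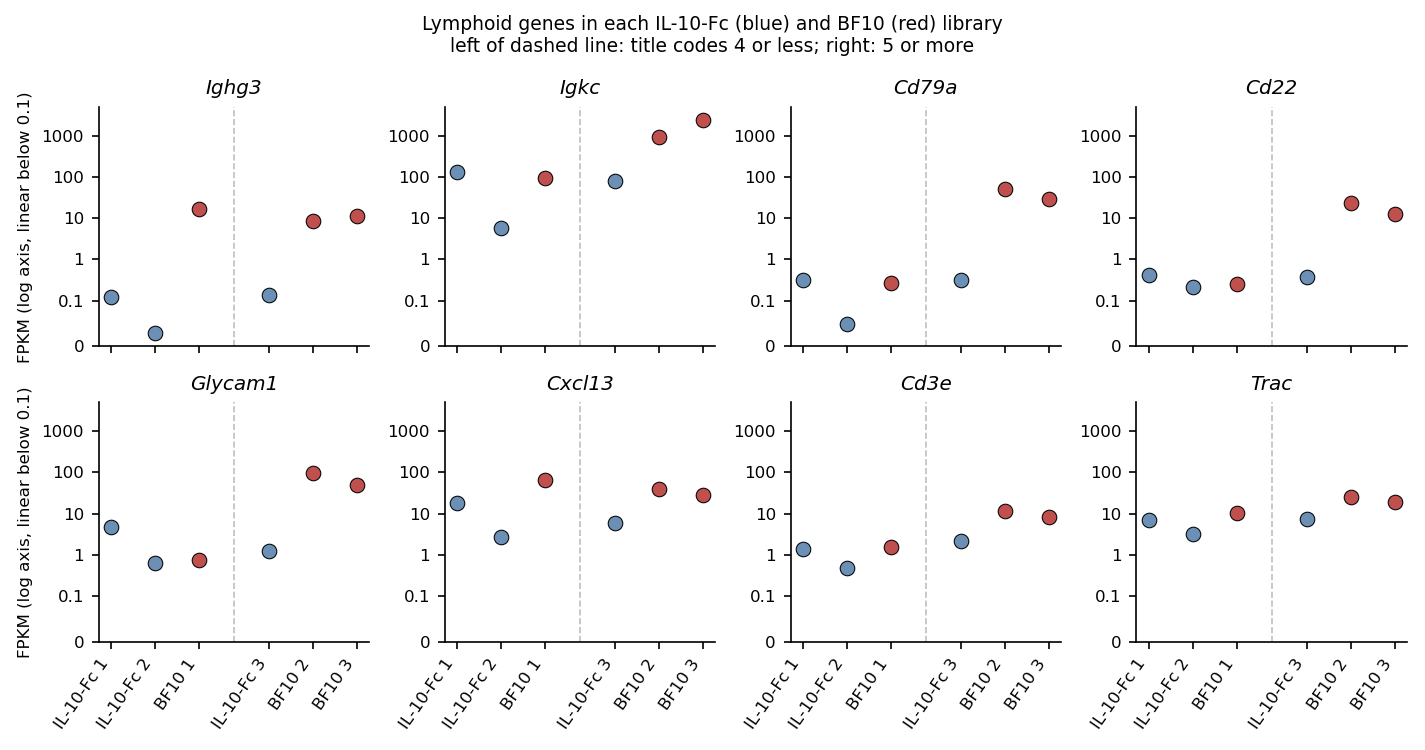
FPKM of 8 lymphoid genes in each library (log axis, linear below 0.1 FPKM), 1 point per library, with IL-10-Fc in blue and BF10 in red and the dashed line between low-code (left) and high-code libraries (right). Ighg3 and Cxcl13 are higher in all 3 BF10 libraries, whereas Cd79a, Cd22 and Glycam1 are high in BF10 replicates 2 and 3 and not in BF10 replicate 1.

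The filter of the main test bears on this list. Of its 17 genes 7 were tested, and the other 10, Ms4a1 among them, reached 1 FPKM in BF10 replicates 2 and 3 and in no other library. None of the 7 was called over all 6 libraries. Within the high-code libraries, BF10 replicates 2 and 3 against IL-10-Fc replicate 3, limma called 31 genes, 0.196% of those tested, of which 29 rose (0.183%) and 2 fell (0.0126%). Here the single IL-10-Fc library was taken to vary like the libraries of the other groups. Those groups included the Ctrl-IgG and aCSF1R libraries, which were of another kind. The 29 included Cd79a (log2 change 4.93 ± 0.52 SE, limma adjusted p = 0.014), Cd79b, the other signalling chain of the receptor (4.66), the inhibitory co-receptor Cd22 (3.72) and the adaptor Bank1 (2.51). A fit without the filter, which was added after the data had been seen, called 219 of 36540 genes (0.599%), 165 of them higher in BF10 (0.452%) and 54 lower (0.148%), and 15 of the 17 B cell genes were among these 165.

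The low-code libraries did not show this. BF10 replicate 1 against IL-10-Fc replicates 1 and 2 gave 1 called gene, Ighg3 (0.00632%), while 1230 genes had an unadjusted p under 0.05, and the log2 change of Cd79a was 0.11, of Cd79b -0.18 and of Cd22 -0.07. Without the filter 52 of 36540 genes were called there (0.142%), 47 of them higher in BF10 (0.129%) and 5 lower (0.0137%). The difference between the change in the high-code and in the low-code libraries was tested itself. With the filter no gene passed (0 of 15813 in limma, smallest adjusted p 0.18, 650 at an unadjusted p under 0.05), and without it 175 of 36540 genes passed, 87 of them with the larger value in the high-code libraries. These 175 included 10 of the 17 B cell genes and 32 immunoglobulin variable segments, and also 60 genes of short non-coding RNAs, whose FPKM rest on few fragments. B cell genes thus separated the high-code BF10 libraries from BF10 replicate 1 and from the IL-10-Fc libraries. The summed level of the B cell list in BF10 replicate 1 lay within the IL-10-Fc range. With 1 low-code BF10 library, the part of that library and of the class in this difference between BF10 libraries cannot be told apart.

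Genes that act downstream of the B cell receptor were mixed. Blnk, the adaptor that links the receptor kinase SYK to calcium signalling, was at 1.34, 0.99 and 1.49 FPKM in IL-10-Fc and 1.66, 12.58 and 9.19 FPKM in BF10. The groups did not overlap, the gene did not pass over all 6 libraries (log2 change 1.66, limma adjusted p = 0.48), and it rose within the high-code libraries (2.24). Syk was at 2.07, 1.26 and 5.81 against 2.04, 15.72 and 13.95 FPKM and Btk, a kinase of the same cascade, at 2.49, 1.51 and 3.65 against 3.1, 10.08 and 7.5 FPKM, neither called. Of the 18 genes of this list, all tested, both BF10 libraries were above the IL-10-Fc library in 17 in the high-code class, against 42.2% of all tested genes. After median-of-ratios scaling the same held for 12 of 18, against 27.8%. Fcgr2b, the inhibitory Fc receptor that myeloid cells also carry, was at 215.0, 189.8 and 116.5 against 154.2, 142.2 and 119.1 FPKM.

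Since these genes moved together in BF10 replicates 2 and 3, their promoters were searched on both strands for 2 motifs of B cell factors in the 250 bases before each annotated start (RefSeq, GRCm38.p6). The motifs were the octamer ATGCAAAT, bound by OCT1 and OCT2 with their coactivator OBF-1, and GAGGAAGT, a form of the site of PU.1 and Spi-B. The octamer occurred in 1.6% of 32851 promoter windows of all genes and in 2 of 16 windows of B cell receptor signalling genes, those of Blnk and Prkcb, and in 0 of 16 windows of the B cell list and 0 of 12 of the follicle list. The second motif occurred in 2.44% of all windows, in 1 of 16 windows of the B cell list (Cd37), in 3 of 16 of the signalling genes (Inpp5d, Rasgrp3 and Vav1), in 0 of 12 of the follicle list and in 2 of 15 windows of the genes called within the high-code libraries (Btla and Eaf2). Of 102 genes searched, 64 had a window. Such a match is a description of the letters and not a binding site. The 150 bases before the start of 3 genes are shown, on the strand of the gene from 5′ to 3′ and with the match to either strand of the motif in capitals, as examples of the B cell, signalling and called genes with a match. They lie at chr19:40994222-40994371 on the minus strand (Blnk, match beginning 130 bases before the start), at chr7:45238840-45238989 on the minus strand (Cd37, match beginning 25 bases before) and at chr16:45224187-45224336 on the plus strand (Btla, match beginning 18 bases before).
Blnk: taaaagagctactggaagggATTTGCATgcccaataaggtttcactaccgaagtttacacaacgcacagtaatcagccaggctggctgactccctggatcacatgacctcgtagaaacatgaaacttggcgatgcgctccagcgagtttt
Cd37: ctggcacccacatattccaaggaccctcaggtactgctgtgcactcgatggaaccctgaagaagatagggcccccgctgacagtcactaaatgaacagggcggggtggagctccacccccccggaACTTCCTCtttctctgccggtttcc
Btla: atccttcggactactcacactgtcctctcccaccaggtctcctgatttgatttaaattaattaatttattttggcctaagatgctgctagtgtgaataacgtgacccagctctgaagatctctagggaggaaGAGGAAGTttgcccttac

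The 3 genes with these promoters had different levels. Cd37, a tetraspanin of mature B cells and other leukocytes, was at 3.37, 1.67 and 8.84 FPKM in IL-10-Fc and 4.08, 45.42 and 38.36 FPKM in BF10. Btla, an inhibitory receptor of B and T lymphocytes, was at 1.58, 0.71 and 0.51 against 0.78, 13.98 and 8.86 FPKM and rose within the high-code libraries (log2 change 3.01, limma adjusted p = 0.015). Cd37 did not pass there (2.12). Pou2af1, which encodes the octamer coactivator OBF-1, was at 0.75, 0.03 and 0.2 against 0.26, 39.27 and 20.1 FPKM, and Spib at 0.1, 0.04 and 0.16 against 0.08, 14.23 and 6.25 FPKM. Both were again high in BF10 replicates 2 and 3 alone.

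Chemokines and vascular genes of lymphoid tissue divided into those shared by all BF10 libraries and those of BF10 replicates 2 and 3. Cxcl13, the chemokine that draws B cells into follicles (chr5:95956951-95961068, plus strand), was at 17.91, 2.74 and 6.0 FPKM in IL-10-Fc and 64.37, 40.09 and 27.76 FPKM in BF10. Every BF10 library was above every IL-10-Fc library, at a mean of 44.1 ± 18.6 against 8.88 ± 7.99 FPKM (SD, n = 3 each). After median-of-ratios scaling the groups overlapped. The gene did not pass (log2 change 2.43 ± 0.79 SE, limma adjusted p = 0.48), and its change was 2.96 in the low-code and 2.30 in the high-code libraries. Its median in the Ctrl-IgG and aCSF1R libraries was 1.34 FPKM, and carried-over RNA at that level would amount to 0.79% of its value in BF10 replicate 3.

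Some other genes of lymphoid tissue were high in the same libraries as the B cell genes. Of the 13 genes of the follicle list 9 were tested. Of these, 6 had both BF10 libraries above IL-10-Fc replicate 3 in the high-code class, against 42.2% of all tested genes. After median-of-ratios scaling the number was also 6, against 27.8%. Glycam1, a mucin-like ligand of L-selectin made by high endothelial venules, was at 4.83, 0.63 and 1.23 FPKM in IL-10-Fc and 0.73, 95.35 and 49.58 FPKM in BF10, and rose within the high-code libraries (log2 change 4.97, limma adjusted p = 0.026). Ccl19, a ligand of the lymphocyte homing receptor CCR7, was at 0.19, 0.06 and 0 against 0.07, 5.34 and 4.14 FPKM and rose there as well (2.51). Ccl21a, the other ligand, was at 25.51, 6.83 and 18.25 against 0.59, 106.6 and 101.5 FPKM and did not pass. BF10 replicate 1 was thus the lowest library for Ccl21a and among the highest for Cxcl13. Ighd, which naive B cells express, was at 0.06, 0.04 and 0.02 against 0.11, 45.98 and 34.79 FPKM. Whether lymph node tissue lay in part of these samples was not tested.

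T cell genes were higher in the same 2 libraries to a smaller degree. Cd3e, a signalling chain of the T cell receptor, was at 1.42, 0.48 and 2.14 FPKM in IL-10-Fc and 1.58, 11.31 and 8.17 FPKM in BF10. Trac, the constant gene of the receptor alpha chain, was at 7.03, 3.24 and 7.6 against 10.46, 24.7 and 18.94 FPKM, and Cd8a at 2.55, 2.44 and 2.86 against 3.53, 8.17 and 6.01 FPKM. For Trac and Cd8a all 3 BF10 libraries were above all 3 IL-10-Fc libraries, and for Cd3e BF10 replicate 1 lay within the IL-10-Fc range. None was called over all 6 libraries (limma adjusted p = 0.48 for Cd3e and Trac). Of the 21 genes of the T cell receptor list 19 were tested and 6 had groups that did not overlap, all higher in BF10, against 4.67% of all tested genes. After median-of-ratios scaling the number was 4, against 2.3%.

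Within the high-code libraries Cd2, an adhesion receptor (log2 change 1.96), and Trbc2, a constant gene of the receptor beta chain (1.93), rose, and 18 of the 19 tested genes had both BF10 libraries above the IL-10-Fc library with either scaling, against 42.2% of all genes (27.8% after median-of-ratios scaling). In the low-code libraries BF10 replicate 1 was above both IL-10-Fc libraries in 13 of the 19, against 62.2%. The median log2 change of the 19 was 0.88 over all 6 libraries, 1.29 in the high-code and 0.37 in the low-code libraries, against 0.34, 0.05 and 0.24 over all tested genes. Cd4 was at 0.53, 0.17 and 0.58 FPKM in IL-10-Fc and 0.12, 5.05 and 4.26 FPKM in BF10, so BF10 replicate 1 had the lowest value. Of the checkpoint genes, Pdcd1 (PD-1) was at 0.32, 0.31 and 1.11 against 0.51, 2.6 and 1.5 FPKM, Lag3 at 2.43, 0.99 and 2.13 against 3.02, 3.89 and 4.8 FPKM, and Havcr2 (TIM-3) at 4.16, 4.09 and 7.6 against 2.75, 7.79 and 7.29 FPKM, none called.

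Of the 31 genes called within the high-code libraries, 12 were immunoglobulin segments or constant genes, which made up 77 of the 15813 tested (0.487%). The filter counted the same BF10 libraries that are high in this comparison. In BF10 replicates 2 and 3, 83 and 97 of 185 Ighv segments reached 1 FPKM. In BF10 replicate 1 and the IL-10-Fc libraries 6 to 19 did. The share of immunoglobulin genes is therefore a description and not a test. Other called genes were Lax1 (log2 change 2.35) and Stap1 (2.36), adaptors in lymphocytes, Eaf2 (2.22), Gimap6 (1.84) and Enpp2 (2.56), which encodes the enzyme autotaxin. Plasma cell Mzb1 rose by the same test (4.57), at 2.48, 0 and 0.58 FPKM in IL-10-Fc and 1.74, 29.8 and 44.86 FPKM in BF10. Among the 31, 23 were also called with median-of-ratios scaling, and 15 had the same sign in the low-code libraries. Leaving out BF10 replicate 3 left 15 called genes (0.0949%), and Cd79a, Cd79b, Cd22 and Btla were among them, while Glycam1, Blnk, Cd2 and Trbc2 were not. Leaving out BF10 replicate 2 gave 73. When BF10 replicate 1 was left out of the comparison of all 6 libraries, 115 genes were called (0.727%), 107 of them higher in BF10 (0.677%) and 8 lower (0.0506%). Of the 115, 35 were immunoglobulin segments or constant genes, a share with the same limit from the filter.

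**Figure D4:**
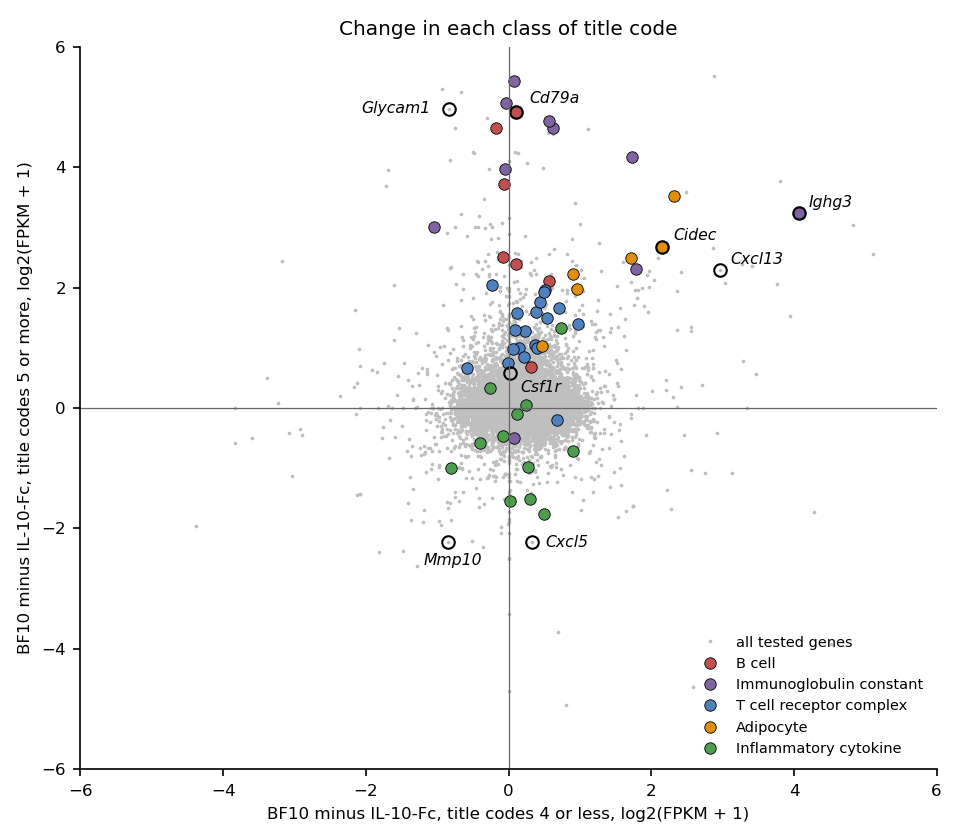
Log2 change of each tested gene (FPKM + 1, BF10 minus IL-10-Fc) in the low-code libraries (x axis) and in the high-code libraries (y axis), with members of 5 gene lists in colour and 8 genes circled and named. Most B cell genes lie near 0 on the x axis and high on the y axis, with Cd79a at 0.11 and 4.93, Ighg3 is high on both at 4.07 and 3.23, and Csf1r lies near the centre at 0.02 and 0.57.

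The genes of the antibody target were not called. Csf1r was at 14.11, 11.71 and 48.55 FPKM in IL-10-Fc replicates 1 to 3 and 13.07, 79.11 and 66.96 FPKM in BF10 replicates 1 to 3. The low-code libraries of both treatments were low and the high-code libraries of both were high, so the log2 change over all 6 of 1.00 ± 0.69 (SE, limma adjusted p = 0.48) became 0.02 in the low-code and 0.57 in the high-code libraries. Csf1, the main ligand, was at 12.77, 12.27 and 85.93 against 24.18, 79.18 and 73.26 FPKM, and Il34, the other ligand, at 12.77, 13.62 and 29.01 against 15.74, 21.74 and 21.31 FPKM. All 3 genes were higher in each high-code library than in any low-code library, whichever the treatment.

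No macrophage gene was called, and the direction of the list depended on the class and the scaling. Of 24 genes 23 were tested, 0 were called in limma, and 1 had groups that did not overlap, against 4.67% of all genes. This was C1qb, at 168.8, 146.7 and 177.3 FPKM in IL-10-Fc and 180.2, 233.3 and 273.8 FPKM in BF10. The median log2 change was 0.39 against 0.34 over all genes, and -0.03 against 0.04 after median-of-ratios scaling, so its sign depended on the scaling. Within the high-code libraries all 23 tested genes had both BF10 libraries above IL-10-Fc replicate 3 (20 after median-of-ratios scaling), against 42.2% and 27.8% of all genes, and their median was 0.51 against 0.05. Within the low-code libraries BF10 replicate 1 was above both IL-10-Fc libraries in 7 of the 23 and below both in 7, against 62.2% and 16.8% of all genes and after median-of-ratios scaling in 4 and 12, against 31.5% and 37.0%. Their scaled median there was -0.30 against -0.01 over all genes. The summed level of the list was 11243.1, 16453.2 and 4370.5 FPKM for IL-10-Fc and 10160.1, 5833.0 and 5710.1 FPKM for BF10.

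Single macrophage genes ranged around these medians. Adgre1 (F4/80) was at 17.23, 11.77 and 8.4 FPKM in IL-10-Fc and 18.42, 14.09 and 15.88 FPKM in BF10. Mrc1, the mannose receptor CD206, was at 41.33, 33.31 and 15.75 against 31.81, 29.03 and 27.39 FPKM. Siglec1, an adhesion receptor of lymph node and tissue macrophages, was at 1.44, 1.05 and 2.66 against 1.95, 7.7 and 6.96 FPKM, the largest log2 change of the list in the high-code libraries at 1.18. Arg1, an arginine-degrading enzyme of alternatively activated macrophages, was at 121.1, 172.7 and 130.0 against 154.5, 312.7 and 158.8 FPKM. The chemokine receptor Ccr2, which marks monocytes, was at 100.8, 64.16 and 20.07 against 59.06, 30.81 and 31.9 FPKM, so its order reversed between the classes.

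No gene of the IL-10 pathway, which both proteins engage, was called between them (0 of 12 in limma). Their median log2 change was 0.60 against 0.34 over all genes, with 9 of 12 above that median, and it was 0.02 in the high-code libraries against 0.05. In 1 of the 12 the groups did not overlap, lower in BF10, against 0.512% of all genes. This was Il10 itself, at 2.96, 2.31 and 1.73 FPKM in IL-10-Fc and 1.62, 0.74 and 1.37 FPKM in BF10, lower in all 3 BF10 libraries with a log2 change of -0.58 ± 0.23 (SE). After median-of-ratios scaling its groups overlapped, and 0 of the 12 genes had all 3 BF10 libraries below, against 1.56%. Il10ra was at 5.22, 3.09 and 7.21 against 4.75, 11.49 and 11.94 FPKM, and Il10rb at 7.34, 5.86 and 21.65 against 13.83, 27.65 and 27.94 FPKM. Socs3, a STAT3 target that limits cytokine signalling, was at 25.7, 19.59 and 68.81 against 34.03, 47.89 and 50.12 FPKM.

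Genes that were lower in BF10 included matrix proteases and contractile genes. Mmp10, a stromelysin (chr9:7502352-7510240, plus strand), was at 68.33, 71.61 and 61.4 FPKM in IL-10-Fc replicates 1 to 3 and 38.48, 12.39 and 12.17 FPKM in BF10 replicates 1 to 3. The IL-10-Fc values lay close together at 67.1 ± 5.21 FPKM (SD, n = 3), all 3 BF10 libraries were below them, and BF10 replicates 2 and 3 were the lowest. It did not pass over all 6 libraries (log2 change -1.83 ± 0.38 SE, limma adjusted p = 0.48) and fell within the high-code libraries (-2.23 ± 0.26 SE, limma adjusted p = 0.016), where without BF10 replicate 3 the adjusted p was 0.093. Its median in the Ctrl-IgG and aCSF1R libraries was 0.4 FPKM.

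Mmp13, a collagenase encoded in the same cluster of chromosome 9, was at 57.76, 68.11 and 63.94 against 34.94, 22.3 and 19.08 FPKM (log2 change -1.32 ± 0.25 SE, limma adjusted p = 0.30). Its change was -0.83 in the low-code and -1.59 in the high-code libraries. The contractile genes Tagln (transgelin) and Cnn1 (calponin) were lower in all 3 BF10 libraries as well, Tagln at 112.7, 109.2 and 156.7 against 95.13, 85.26 and 68.32 FPKM and Cnn1 at 6.44, 5.33 and 7.02 against 4.15, 2.0 and 1.71 FPKM. Anxa8 (annexin A8), Serpina3f, Il18rap (a chain of the IL-18 receptor), the histone gene H3c10, Tpmt and Myl9 (a myosin light chain) completed the 10 largest such differences by the naming rule. Their log2 changes ran from -0.51 to -1.69 and none passed. Genes lower in all 3 BF10 libraries were 81 in all (0.512%), and 246 (1.56%) after median-of-ratios scaling.

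**Figure D5:**
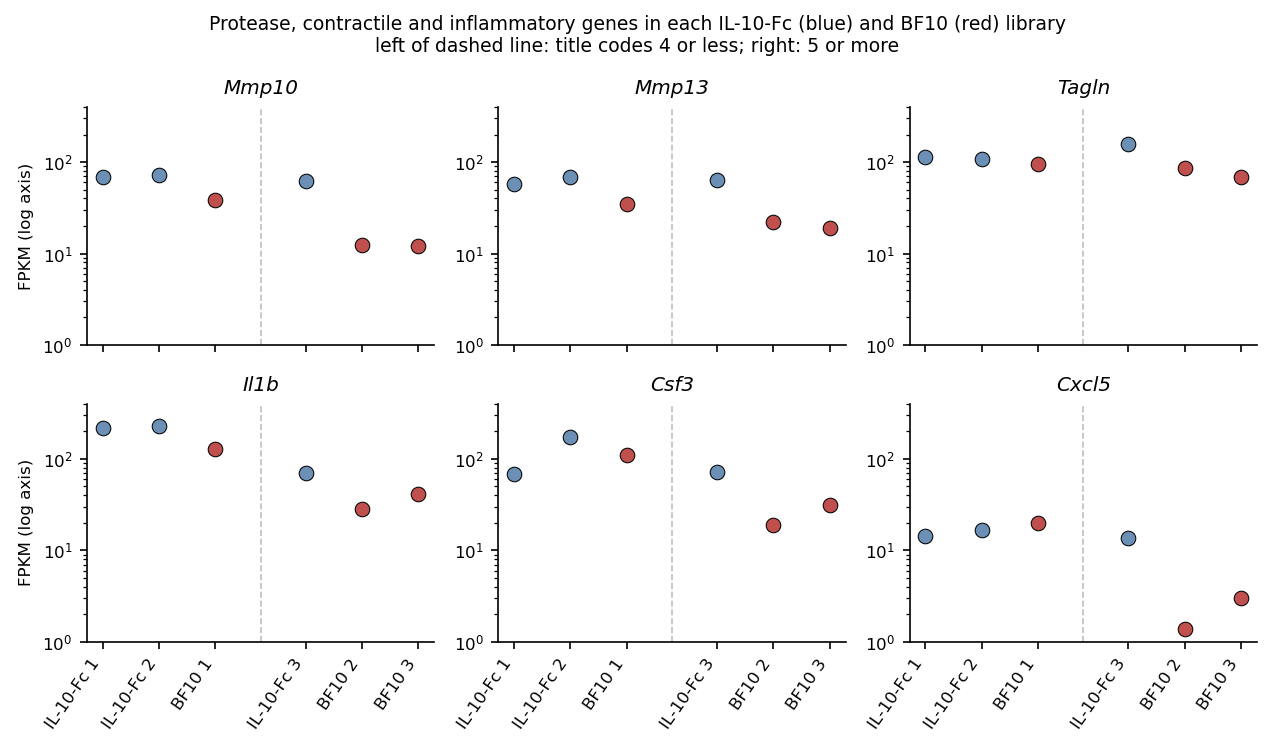
FPKM (log axis) of 6 genes in each library, 1 point per library, with IL-10-Fc in blue and BF10 in red and the dashed line between low-code (left) and high-code libraries (right). Mmp10, Mmp13 and Tagln are lower in all 3 BF10 libraries, whereas Csf3 and Cxcl5 are lower in BF10 replicates 2 and 3 and not in BF10 replicate 1.

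Several inflammatory and neutrophil genes had lower values in BF10 replicates 2 and 3 than in IL-10-Fc replicate 3, without passing the test. Csf3, the granulocyte growth factor G-CSF, was at 68.45, 173.1 and 72.34 FPKM in IL-10-Fc and 110.3, 18.8 and 31.07 FPKM in BF10. Cxcl5, a neutrophil chemokine, was at 14.36, 16.71 and 13.52 against 19.79, 1.39 and 2.99 FPKM, and Cxcl1, another, at 29.12, 53.9 and 38.95 against 56.38, 5.37 and 20.6 FPKM. BF10 replicate 1 was within or above the IL-10-Fc values for all 3, so the groups overlapped. Il1b was at 220.3, 230.2 and 69.5 against 128.7, 28.39 and 41.56 FPKM, lower in BF10 within each class but not across them.

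For the 14 genes of the inflammatory cytokine list, 12 of them tested, 8 had both BF10 libraries below IL-10-Fc replicate 3 in the high-code class, against 25.4% of all genes (9 against 40.7% after median-of-ratios scaling). Their median log2 change was -0.64 there and 0.18 in the low-code libraries, and 0 were called in limma. The calprotectin gene S100a8 was at 1891.7, 1083.6 and 394.0 FPKM in IL-10-Fc and 681.4, 194.6 and 293.1 FPKM in BF10, and its partner S100a9 at 2491.8, 1676.1 and 560.4 against 872.2, 276.1 and 385.6 FPKM. Both were lower in BF10 within each class and overlapped across classes. Of 18 tested neutrophil genes, 11 had both BF10 libraries below IL-10-Fc replicate 3 in the high-code class, against 25.4% of all genes. In 4 both were above, against 42.2%. After median-of-ratios scaling 12 had both below and 4 both above, against 40.7% and 27.8%. The granule genes of immature neutrophils were among the 4, with Ngp at 28.23, 4.31 and 31.24 against 6.86, 33.68 and 38.96 FPKM and Ltf at 22.46, 3.59 and 12.63 against 12.56, 15.91 and 21.37 FPKM. Tpsab1, a tryptase of mast cells, was at 68.25, 7.23 and 26.32 against 11.34, 4.93 and 7.56 FPKM.

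All 6 tested genes of the 7 in the fat cell list had a log2 change above 0, with a median of 1.63 over all 6 libraries, 2.36 in the high-code and 1.33 in the low-code libraries, against 0.34, 0.05 and 0.24 over all genes. None passed, and 2 of the 6 had groups that did not overlap, against 4.67% (0 after median-of-ratios scaling, against 2.3%). In the low-code libraries BF10 replicate 1 was above both IL-10-Fc libraries in 2 of the 6, against 62.2% of all genes. After median-of-ratios scaling this held for 1, against 31.5%. It was below both in 0 with either scaling. Cidec, a lipid droplet protein, was at 11.56, 0.54 and 1.67 FPKM in IL-10-Fc and 18.61, 15.25 and 17.05 FPKM in BF10, higher in every BF10 library (log2 change 2.27 ± 0.58 SE, limma adjusted p = 0.48). Adipoq (adiponectin) was at 39.71, 1.16 and 2.3 against 29.75, 16.32 and 18.93 FPKM, and Cfd (adipsin) at 115.6, 2.72 and 5.14 against 102.5, 60.2 and 80.84 FPKM. For Adipoq and Cfd IL-10-Fc replicate 1 was the highest library, and IL-10-Fc replicates 2 and 3 were low. Hp, haptoglobin, which fat tissue and liver make, was at 74.49, 6.65 and 25.28 against 127.9, 107.2 and 145.5 FPKM with groups that did not overlap (2.36 ± 0.86 SE, limma adjusted p = 0.48). After median-of-ratios scaling the groups overlapped for both Cidec and Hp. Summed over the 7 fat cell genes the level came to 584.5, 79.11 and 40.85 FPKM for IL-10-Fc and 484.4, 229.5 and 291.1 FPKM in BF10. Whether fat tissue entered the samples unequally was not tested.

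Interferon, granzyme and muscle genes were raised in BF10 replicate 3, the library with the most RNA of the other kind. Rsad2, an antiviral interferon target, was at 1.69, 1.8 and 3.47 FPKM in IL-10-Fc and 4.58, 3.04 and 52.52 FPKM in BF10, and Cxcl10, a T cell chemokine, at 49.24, 29.44 and 41.37 against 56.85, 26.87 and 177.6 FPKM. At 16.35% of their Ctrl-IgG and aCSF1R medians, carried-over RNA would amount to 66.0% of the Rsad2 level and 55.03% of the Cxcl10 level in BF10 replicate 3. Gzmb, a granzyme of cytotoxic lymphocytes, was at 14.73, 18.8 and 8.95 against 25.2, 9.44 and 37.27 FPKM, and Prf1 (perforin) at 0.95, 0.82 and 2.98 against 1.25, 4.31 and 10.14 FPKM, for which the same measure was 55.6% and 75.3%. Acta1, skeletal muscle actin, was at most 0.3 FPKM in 5 libraries and 30.46 FPKM in BF10 replicate 3. The measure of carried-over RNA was not computed for muscle genes. Their summed level varied from 40.9 to 1339.3 FPKM among the Ctrl-IgG and aCSF1R libraries, and the source of the muscle RNA was not tested.

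The same measure had a median of 0.776% over the 17 B cell genes, with the highest value for Ebf1 at 22.9%, and of 6.13% over the 21 T cell receptor genes, with the highest for Cd28 at 13.55%. It was at most 1.31% over the 12 immunoglobulin constant genes, but had a median of 35.9% over the 13 cytotoxic genes and 41.8% over the 18 type I interferon genes. BF10 replicate 2, with 0.021% by the 21 genes, had Rsad2 and Gzmb within the range of IL-10-Fc, Cxcl10 just below it and Prf1 above it. Gpnmb, a glycoprotein of macrophages and melanocytes, and Whrn, which had groups that did not overlap, had medians of 92.68 and 102.0 FPKM over the Ctrl-IgG and aCSF1R libraries. In BF10 replicates 1 to 3 Gpnmb was at 2.68, 2.24 and 32.01 FPKM and Whrn at 2.49, 2.52 and 20.7 FPKM, and in IL-10-Fc they were at most 1.13 and 0.63 FPKM. They are therefore not separated from the carried-over RNA in BF10 replicates 1 and 3.

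Of the 12 MHC class I genes 0 had both BF10 libraries above IL-10-Fc replicate 3 and 6 had both below in the high-code class, against 42.2% and 25.4% of all genes, and after median-of-ratios scaling 10 had both below, against 40.7%. Of 10 tested class II genes 4 had both above and 2 both below. After median-of-ratios scaling 1 had both above and 6 both below, against 27.8% and 40.7% of all genes. H2-Ab1, a class II chain, was at 488.7 FPKM in IL-10-Fc replicate 3 and 501.2 and 488.0 FPKM in BF10 replicates 2 and 3, and Cd74, the invariant chain, at 1315.5 against 1391.0 and 1322.0 FPKM. The low-code libraries had 163.8 to 212.2 FPKM of H2-Ab1 and 278.3 to 447.3 FPKM of Cd74. H2-Ob, which B cells express and which modulates peptide loading, was at 0.45, 0.21 and 0.38 FPKM in IL-10-Fc and 0.3, 26.59 and 13.35 FPKM in BF10. The interferon gamma response list had 0 of 18 genes called in limma, and its log2 changes had a median of -0.16 in the 6 libraries against 0.34 over all genes, and of -0.57 against 0.04 after median-of-ratios scaling. The median was -0.06 in the high-code and -0.28 in the low-code libraries, where BF10 replicate 1 was below both IL-10-Fc libraries in 10 of the 18, against 16.8% of all genes. Cxcl9, a chemokine of that response, was at 244.9, 196.6 and 66.58 against 111.6, 51.39 and 70.23 FPKM.

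In the remaining lists described here no member was called over all 6 libraries in limma. The 16 genes of the expanded immune signature, which the study used and which includes Cxcl13, Cd3e and Cd2, had 6 with groups that did not overlap, against 4.67% of all genes (2 against 2.3% after median-of-ratios scaling), and 3 of these 6, Ccl5, Nkg7 and Lag3, had medians of 130.8, 24.31 and 4.0 FPKM over the Ctrl-IgG and aCSF1R libraries. All 12 hypoxia and glycolysis genes had both BF10 libraries below IL-10-Fc replicate 3 in the high-code class, against 25.4% of all genes (40.7% after median-of-ratios scaling), with the glucose transporter Slc2a1 at 97.12 against 64.86 and 59.72 FPKM and Ndrg1 at 234.9 against 154.9 and 100.3 FPKM. In the low-code libraries BF10 replicate 1 was above both IL-10-Fc libraries in 8 of the 12, against 62.2% of all genes. All 9 endothelial genes had both BF10 libraries above in the high-code class, against 42.2% of all genes (also 9 after median-of-ratios scaling, against 27.8%), and 6 of the 9 were above both IL-10-Fc libraries in the low-code class, against 62.2%, with Cdh5 (VE-cadherin) at 11.48 against 18.41 and 19.72 FPKM. Among 10 fibroblast genes 8 had both below, against 25.4% (9 after that scaling, against 40.7%), and in the low-code class 5 were above both and 3 below both, with Col1a1, the collagen I alpha chain, at 618.4 against 450.2 and 320.6 FPKM.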

How the data were processed

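Stranded mRNA libraries of tumour tissue were sequenced on an Illumina instrument. Per the submitters' processing notes, STAR 2.7.5a, RSEM 1.3.3 and DESeq2 1.30.0 were used and the build was mm10/GRCm38. The authors deposited FPKM for 55401 genes in 12 libraries, rounded and not scaled between libraries (sums of 637596 to 976950 in the 6 compared). FPKM carry no counts, so depth and the precision of single values are unknown. A table of the BF10 and IL-10-Fc comparison was also deposited, with the mean normalized count per gene as a signal over the 6 libraries, used here for Ighg3 and Mir1893 alone, and with the authors' fold changes and p-values, which were not used.

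limma 3.58.1 (R 4.3.3, lmFit, contrasts.fit, eBayes with trend) was fitted to log2(FPKM + 1) of genes with at least 1 FPKM in at least 3 of 12 libraries, all 12 libraries in 4 groups without covariates, with Benjamini-Hochberg adjustment over 15813 genes. Fold changes on this scale understate the change of low genes. A second fit split BF10 and IL-10-Fc by the first number of the title code and gave the change within each class and their difference, with a lone library taken to vary like the others. The method was tested on simulated data. With 3 libraries against 3 the smallest exact permutation p is 0.1, so no such test of single genes is given. Groups came from the treatment labels, and replicate numbers follow sample order. No 2 libraries held identical values (0 pairs).

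Named genes were the called genes, the members of the gene lists, and the 10 largest rises and falls among genes with groups that did not overlap and a mean of at least 5 FPKM in the higher group, over all 6 libraries and within a class, without predicted genes and variable segments, which are given as families. Genes called within a class of title code alone were named after their values were seen. The members and lists were chosen with earlier results of these data known, and one list holds genes the study named from these libraries. Some genes are not reported here. The alternatives were another pseudocount, filter or scaling, the 6 libraries alone, a class term, and leaving out each library. Gene positions were those of the GRCm38 annotation, which held 99.5% of the gene identifiers, and 217 genes share a symbol. Sequences were read from RefSeq promoter windows of GRCm38.p6. Figures were drawn with matplotlib 3.10.9.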

Additional observations from a re-analysis of the deposited data

Results flagged for a closer look

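In a fit without the filter on low values, added after the data had been seen, the change from IL-10-Fc to BF10 in the high-code libraries differed from that in the low-code libraries for 23 reported genes of the lists and rules used here, each by limma's test of that difference. For B cell genes the log2 change was larger in the high-code libraries by 2.63 (Blk, a B cell kinase), 3.79 (Cd22), 4.82 (Cd79a), 4.84 (Cd79b), 3.7 (Fcer2a, the receptor CD23), 3.68 (Fcmr, the IgM Fc receptor), 2.72 (Fcrla), 3.93 (Ms4a1) and 4.69 (Pou2af1). For immunoglobulin constant genes it was larger by 5.25 (Ighd), 3.11 (Ighe) and 5.1 (Iglc2), and for the plasma cell list by 2.49 (Eaf2) and 1.56 (Irf4).

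The remaining 9 were Glycam1 (5.8), Btla (3.25), Enpp2 (2.85), Stap1 (2.66), the class II accessory genes H2-Ob (3.88) and H2-Oa (2.04), Cd4 (2.09), Il12a, a chain of interleukin-12 (1.09), and Tox, a regulator of exhausted T cells (0.71). All genes named in this section had the larger change in the high-code libraries. Some of them had been named because they were called there, and the lists were chosen with earlier results known. Their common direction was thus in part set by that choice. Among all genes that passed this test, given above, the 2 directions were about equal in number. The class holds 1 BF10 library on the low-code side and 1 IL-10-Fc library on the high-code side, so the share of single libraries in these differences was not tested. With the filter no gene passed (0 in limma, 650 at an unadjusted p under 0.05).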

How the results depend on the processing

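FPKM hold no depth, and with 3 libraries a group, of 2 classes, a small change cannot be seen. The 2 genes called in limma became 1 with a mean of at least 5 FPKM, 1 after rescaling to TPM, 4 with median-of-ratios size factors, 0 in the 6 libraries alone (286 at an unadjusted p under 0.05) and 0 there with a class term (1137). They became 31 within the high-code and 1 within the low-code libraries. Leaving out single libraries gave 1 (BF10 replicate 3) to 115 (BF10 replicate 1) genes, 9 when BF10 replicate 2 and 5 when the first IL-10-Fc library was left out. Alternatives chosen after seeing the data gave, for the 31 genes, 219 without the filter and 15 to 73 without 1 library, for the 1 gene 52 and 2 to 5, and for the difference between classes (0 genes) 175 without the filter.

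The median log2 change of the macrophage list moved from 0.39 to 0.63 (TPM), -0.03 (median-of-ratios) and 0.09 (low-code libraries). In the low-code libraries it was 0.37 for T cell, 0.10 for B cell and 0.32 for immunoglobulin constant genes. Ighg3 lost its call in the fits of 6 libraries (limma adjusted p 0.17 and 0.11), and Mir1893 there, with TPM, without BF10 replicate 3 and within the low-code libraries. No named value changed direction past the test. The causes were not tested. No paired analysis was possible because replicate numbers follow sample order and tie no BF10 library to an IL-10-Fc library.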
